A study of Homo sapiens with 6 samples.

Results

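The lysosomal genes described here were 43 genes listed by name: 13 cathepsins and other proteases, 15 glycosidases and sulfatases, 6 lipid enzymes and lipid-binding proteins, 7 membrane proteins, and GRN and TFEB. All 43 were among the 24846 genes of the table and all 43 passed the filter on low values. RNA-seq was performed on A549, a human lung adenocarcinoma cell line, so that the results rest on 1 line. Wild-type A549 cells were grown in triplicate for 8 passages in DMEM/F12 with serum and antibiotics. The 3 ACC cultures grew in calcium-depleted medium to which 2 mM elemental calcium was given as amorphous calcium carbonate (ACC), a non-crystalline and easily dissolved form of the mineral. The 3 control cultures grew in the complete medium, which contains calcium chloride. The source and the amount of calcium, the carbonate, the sodium tripolyphosphate stabilizer of the ACC and the base medium therefore changed together. Their effects cannot be told apart. The study asked whether ACC acts as a solid base on acidic tumour surroundings. It reported lower enzyme activity of cathepsin B in mouse tumours treated with ACC than with vehicle. The values here are mRNA levels in cultured cells, which is a different measure.

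Lysosomes are acidic organelles in which hydrolases digest proteins, glycans and lipids that arrive by endocytosis and autophagy. Most of these enzymes work best at low pH, are made in the endoplasmic reticulum, and are carried to the lysosome by receptors for mannose 6-phosphate or by other sorting receptors. Proteins of the lysosomal membrane shield it from digestion, move ions and carry the products out. TFEB and its relatives MITF and TFE3 are transcription factors that bind the promoters of many lysosomal genes, and phosphorylation at the lysosome surface keeps TFEB in the cytosol when nutrients are plentiful. A549 cells come from a lung epithelial tumour, and tumour cells are known to release part of their cathepsins outside the cell.

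Each library held between 21771645 and 24805486 reads in genes. The values are normalized counts, that is reads per gene divided by the size factor of the library. Among markers of epithelial cells, KRT8 was at 81494 ± 230.0 in the control and 65713 ± 1726 with ACC (SD, n = 3, here and in later values with ± that are not marked SE). The epithelial marker EPCAM was at 264 ± 21.4 and 405 ± 18.4. Of the markers of alveolar type II cells, ABCA3 was at 1806 ± 50.1 and 1899 ± 18.9, while the surfactant genes SFTPA1 and SFTPA2 were at or near 0. Of 10 markers of leukocytes and macrophages, cells rich in lysosomes, 7 were in the table. Their summed level was 2.89 to 5.34 in the control libraries and 4.82 to 6.13 in the ACC libraries. AIF1 and CD3E were at 0 in all 6, and PTPRC, CSF1R, TYROBP and FCER1G had at most 2.85 in any library. The 1 marker of this list that was tested, LYZ, had 0, 0.89 and 0.95 in the control and 3.73, 4.82 and 5.11 with ACC (adjusted p = 0.0122, limma). LYZ reached the filter on low values through its ACC libraries alone, so its call carries little weight. Its part in the results was not tested. The 6 fibroblast markers summed to 2067 to 2265 in the control libraries and 456 to 541 with ACC, nearly all of it COL1A1. Of the 4 that were tested, COL1A1, COL3A1 and PDGFRA were lower with ACC, as were 21.9% of all genes tested. LUM was also lower, but it reached the filter on low values through its control libraries alone. It had at most 8.55 normalized counts, so its call carries little weight. DCN and COL1A2 were at or near 0. Mitochondrial genes took 4.04% to 4.29% of the counts in the control libraries and 4.39%, 5.70% and 5.04% in the ACC libraries, and their part in the results was not tested. Without the ACC library at 5.70%, the counts of lysosomal genes that passed the test below were those with it, 30 higher and 4 lower. Their median log2 fold change was then 0.33, against 0.38 with all libraries. The ACC libraries left, at 4.39% and 5.04%, were still above every control library. The mitochondrial share and the treatment therefore cannot be told apart. Fewer expressing cells and less RNA per cell cannot be told apart in such bulk samples.

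Most of the lysosomal genes were higher with ACC. Of the 43, 30 rose, 4 fell and 9 did not pass at an adjusted p of 0.05 or less (limma on log2(normalized count + 1), adjusted over all 19318 genes tested). Among all genes tested, 21.3% were higher and 21.9% lower by the same rule. The median log2 fold change of the lysosomal genes was 0.38, against 0.0001 over all genes tested. Every ACC library lay above every control library for 31 of the 43 and below for 5, and 7 overlapped, while 25.5% of all genes tested were fully above and 25.9% fully below. The changes were moderate in size. Among the genes that rose, 11 did so by 1.5-fold or more, 14 by 1.2- to 1.5-fold and 5 by less than 1.2-fold. The same ranges held 7.96%, 7.44% and 5.92% of all genes tested. With a further requirement of a 2-fold change and 30 reads in 1 library, CTSD alone was called higher and 0 were called lower by limma, edgeR and DESeq2, against 2.77% of all genes tested that were higher and 2.24% lower. Without ACC 2 or without control 2, CTSS also reached 2-fold, which made the count of higher genes 2. Without the fold requirement, the 4 lower genes named below passed by each of these tools.

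Genes with more counts passed the test more often, in both directions. Of the 4705 genes with a mean normalized count from 1000 to that of the most highly counted lysosomal gene, 30.8% were higher and 36.5% lower, with a median log2 fold change of -0.022. Of the 28 lysosomal genes with a mean of at least 1000, 22 were higher and 3 lower. The shift was present in each ACC library. The median of the 43 log2 differences from the control mean was 0.02, 0.02 and -0.03 in the control libraries and 0.32, 0.37 and 0.34 in the ACC libraries. In the ACC libraries 36, 35 and 35 of the 43 genes were above their control mean, and in the control libraries 28, 25 and 11. Of the 43 genes, 17 share exon bases with another gene of the table, so that reads on those bases are uncertain. Shares of exon bases of 10% or more, in CTSA, CTSD, CTSZ, HEXA, IDS, IDUA and MAN2B1, and those of the fallen GLA, NPC1 and NPC2 are given beside the genes.

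**Figure D1:**
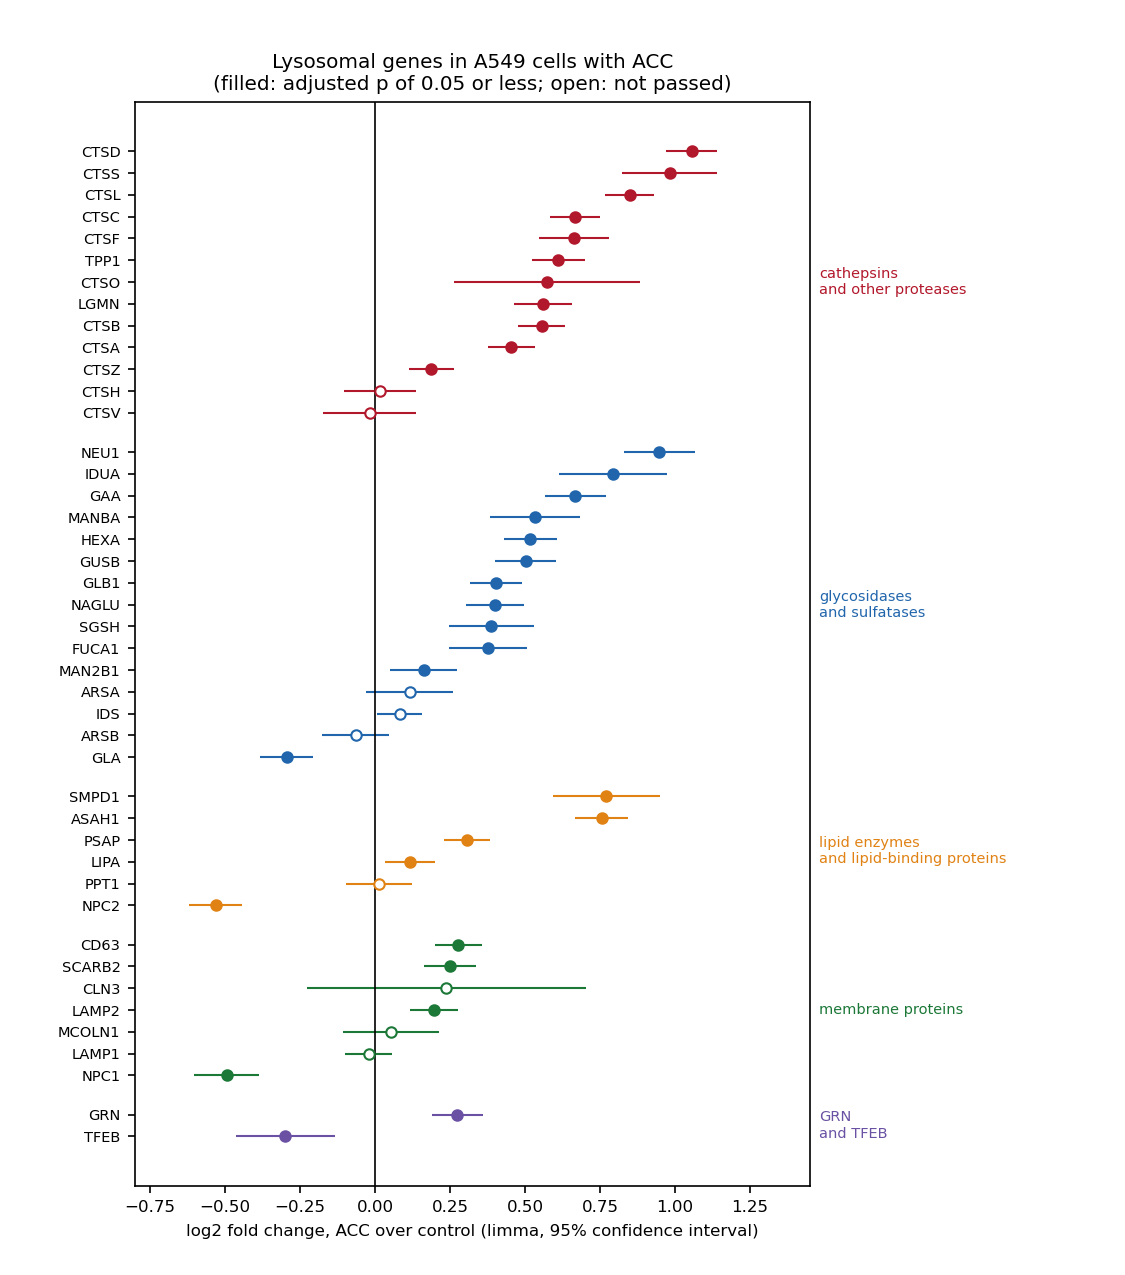
Log2 fold change of each of the 43 lysosomal genes with ACC against control (horizontal axis), by role class, with its 95% interval from limma (bars). Filled points passed the test, 30 right of 0 and those of GLA, NPC2, NPC1 and TFEB left of 0, and the 9 open points did not.

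**Figure D2:**
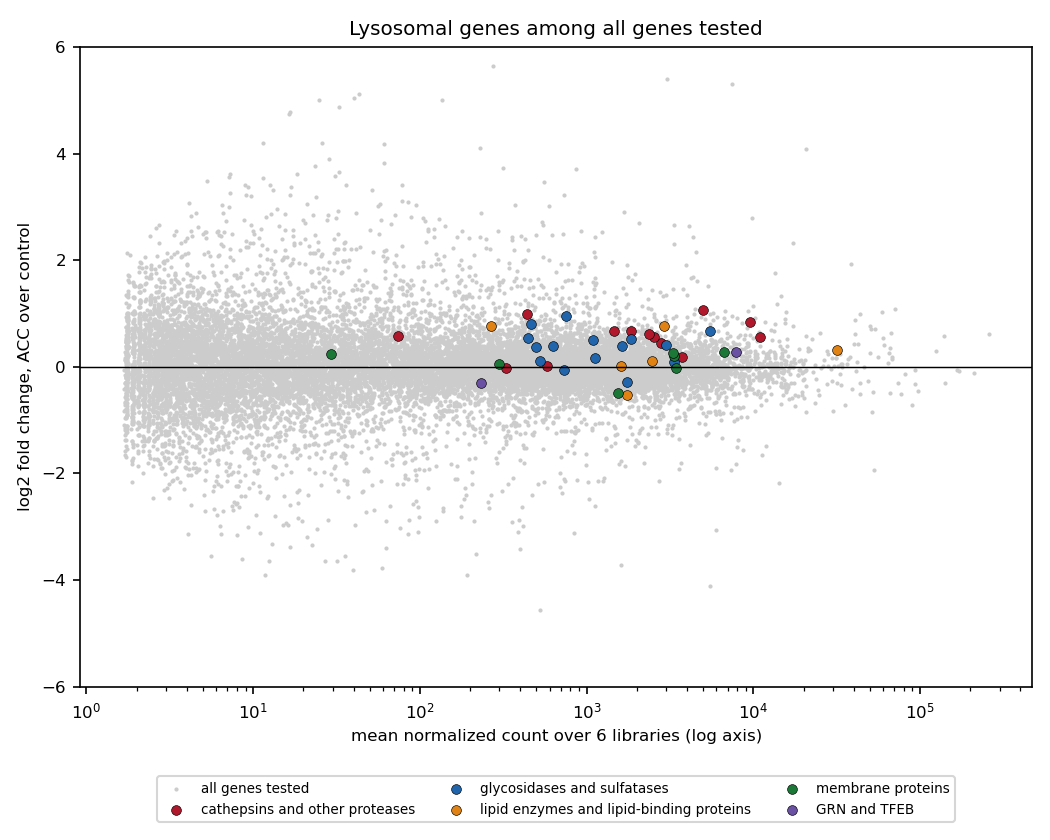
Log2 fold change (vertical axis) against the mean normalized count over 6 libraries (logarithmic horizontal axis) for all 19318 genes tested (grey) and the 43 lysosomal genes (coloured by role class). The lysosomal genes lie mostly above 0, within the range of the other genes, and their highest value is the 1.06 of CTSD.

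TFEB, the transcription factor among the members (ENSG00000112561, chr6:41683978-41736259 on the − strand), fell. Its normalized counts were 260.2, 261 and 253 in the control libraries and 200.3, 212 and 217 in the ACC libraries. Every ACC library was below every control library, a 1.23-fold difference (log2 fold change -0.30 ± 0.079 (SE), adjusted p = 0.0047, limma). Its relatives went the other way. MITF had 481, 483 and 526 normalized counts in the control and 695, 735 and 663 with ACC, a rise of 1.40-fold (adjusted p = 2.51e-06, limma). TFE3 had 2860.4, 3013 and 2937 in the control and 3352, 3241 and 3232 with ACC, a smaller rise of 1.12-fold (adjusted p = 0.00219, limma). The groups did not overlap for either gene. The mRNA level says nothing of where the TFEB protein was in the cell. GRN, the precursor of granulins in the lysosome lumen, had 7037, 7523 and 6679.8 normalized counts in the control and 8482, 8577 and 8609 with ACC. It rose by 1.21-fold, with no overlap between the groups (adjusted p = 1.61e-05, limma).

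The promoters of the members were searched for the site that TFEB and its relatives bind. RefSeq windows on GRCh38.p14, from 250 bases before to 50 bases after the start of a transcript, were matched for 31 of the 43 genes. The motif CACGTG, the E-box of TFEB and of several other basic helix-loop-helix factors, was in the windows of 10 of the 31 (32.3%), against 8.78% of 27305 genes with a window and 12.2% of the 11890 of these that were tested. The longer TCACGTGA, which contains CACGTG and is counted within it, was in 5 of the 31 (16.1%), against 1.18% of the genes with a window and 2.05% of those tested. Both motifs read the same on the opposite strand. The stretches that hold the sites in 7 of the genes are shown because they place the motif, in capitals, beside genes that rose and genes that did not.
CTSD, chr11:1763949-1763994, − strand: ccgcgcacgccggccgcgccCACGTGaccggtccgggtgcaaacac
NEU1, chr6:31862922-31862967, − strand: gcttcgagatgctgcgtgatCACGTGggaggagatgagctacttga
CTSF, chr11:66568632-66568749, − strand: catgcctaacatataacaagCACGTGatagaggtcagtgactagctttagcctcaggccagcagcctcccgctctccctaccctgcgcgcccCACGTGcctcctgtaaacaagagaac
GAA, chr17:80101485-80101575, + strand: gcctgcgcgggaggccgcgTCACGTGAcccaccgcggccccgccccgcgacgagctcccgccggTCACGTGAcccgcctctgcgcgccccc
CTSA, chr20:45891273-45891334, + strand: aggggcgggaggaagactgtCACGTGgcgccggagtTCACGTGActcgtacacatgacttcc
LAMP1, chr13:113297027-113297236, + strand: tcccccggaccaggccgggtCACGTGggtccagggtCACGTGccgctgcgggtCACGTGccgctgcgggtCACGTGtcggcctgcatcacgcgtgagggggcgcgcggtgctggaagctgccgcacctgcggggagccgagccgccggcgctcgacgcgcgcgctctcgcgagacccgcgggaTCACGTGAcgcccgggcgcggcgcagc
MCOLN1, chr19:7522563-7522623, + strand: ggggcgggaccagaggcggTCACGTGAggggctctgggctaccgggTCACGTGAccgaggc
CTSD and NEU1 hold 1 site each in the stretch shown, CTSF, GAA, CTSA and MCOLN1 hold 2, and LAMP1 holds 5. Both sites of GAA and of MCOLN1 are the longer form, with the nearest CACGTG at 31 and 14 bases before the start. CTSD, NEU1, CTSF, GAA and CTSA rose, while LAMP1 and MCOLN1 did not pass the test. Over the 10 genes with CACGTG, 6 were higher and 0 lower, with a median log2 fold change of 0.37. Over the 21 matched genes without it, 13 were higher and 4 lower, with a median of 0.19. With TCACGTGA, 2 of 5 were higher (CTSA and GAA), and LAMP1, CLN3 and MCOLN1 did not pass, while 17 of the 26 without it were higher and 4 lower. The medians for the longer motif ran the other way, at 0.24 with it and 0.26 without it. No test was made of these counts, and a match describes letters in a window and not a bound factor. Among all tested genes with a window, 28.6% of the 1448 with CACGTG were higher and 25.55% lower. Of the 10442 with a window that lacks it, 24.4% were higher and 27.0% lower. The median log2 fold changes were 0.010 and -0.009. Of the 244 tested genes with TCACGTGA, 29.5% were higher and 22.5% lower, against 24.8% and 26.95% of the 11646 without it.

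The proteases held the highest share of risen genes. Of the 13, 11 rose, 0 fell and 2 did not pass, and the median log2 fold change was 0.57. Their summed normalized counts took 0.148%, 0.153% and 0.141% of the total in the control libraries and 0.229%, 0.228% and 0.230% with ACC, a 1.56-fold higher sum. A sum gives most weight to the genes with the most reads, here CTSB and CTSL.

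CTSD, the main aspartic protease of lysosomes (ENSG00000117984, chr11:1752752-1764573 on the − strand), had 3217, 3443 and 3102 normalized counts in the control libraries. With ACC the counts were 6593, 6795 and 6899, so that each ACC library was far above each control library. This 2.08-fold rise was the largest of the 43 genes (log2 fold change 1.06 ± 0.04 (SE), adjusted p = 3.35e-13, limma). Of the exon bases of CTSD, 23.4% are shared with AC068580.3 and 22.9% with AC068580.4, which had means of 8.30 and 36.9 normalized counts. CTSS, a cysteine protease that stays active at neutral pH and is best known from antigen-presenting cells, had 298, 323 and 266 in the control and 621, 551 and 578 with ACC. Its groups were also well apart, and it rose 1.98-fold (log2 fold change 0.98 ± 0.076 (SE), adjusted p = 5.67e-09, limma). CTSL, a broadly acting cysteine protease (ENSG00000135047, chr9:87724051-87731469 on the + strand), had 6496, 7268 and 6638 in the control and 12249, 12204 and 12248 with ACC. The ACC libraries of CTSL hardly differed from each other, and the rise was 1.80-fold (adjusted p = 4.53e-12, limma).

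CTSC, a dipeptidyl peptidase that activates other proteases, had 1417, 1431 and 1447 normalized counts in the control and 2254, 2242 and 2323 with ACC. CTSF, another cysteine cathepsin, had 1178, 1206 and 1021 in the control and 1797, 1754 and 1826 with ACC. TPP1, a serine protease that takes tripeptides off protein ends, had 1909, 1935 and 1789 in the control and 2784, 2862 and 2958 with ACC. None of these 3 genes overlapped between the groups. They rose 1.59-, 1.58- and 1.53-fold, and the largest of their adjusted p-values was 1.57e-08 (limma).

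CTSB, the cathepsin whose activity the study followed (ENSG00000164733, chr8:11842524-11869533 on the − strand), had 9125, 9108 and 8395 normalized counts in the control. With ACC it had 13285, 12757 and 13082, again with every ACC library above every control library. The rise was 1.47-fold (log2 fold change 0.56 ± 0.037 (SE), adjusted p = 8.27e-10, limma). Near it were LGMN, an asparagine-specific endopeptidase that processes other cathepsins, at 2065 ± 147 and 3039 ± 22.5 (log2 fold change 0.56), and CTSA, a carboxypeptidase with 11.1% of its exon bases shared with NEURL2 on the opposite strand, at 2344 ± 4.07 and 3212 ± 68.7 (log2 fold change 0.45). CTSO, a cysteine cathepsin of low level, was at 59.1 ± 9.68 and 87.7 ± 1.82 (adjusted p = 0.00392, limma). CTSZ, a carboxypeptidase, rose by less, with a log2 fold change of 0.19. Its exons share 31.6% of their bases with NELFCD on the opposite strand, and the sources used here do not say if reads were counted by strand.

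The pair that did not pass were CTSV and CTSH. CTSV, a close relative of CTSL, had 326, 331 and 336 normalized counts in the control and 316, 356 and 309.9 with ACC. These groups overlapped, and the 95% interval of the log2 fold change was -0.17 to 0.14 (adjusted p = 0.873, limma). CTSH, an aminopeptidase, was at 573 ± 24.1 and 579 ± 12.5, with a 95% interval of -0.10 to 0.14 (adjusted p = 0.84, limma). CTSL and CTSV are similar in sequence, so that reads shared between them are uncertain.

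Glycosidases and sulfatases remove sugars and sulfate groups from glycoproteins, glycolipids and glycosaminoglycans. Of the 15, 11 rose, GLA fell and 3 did not pass, with a median log2 fold change of 0.40. Together they took 0.0941%, 0.0947% and 0.0877% of the counts in the control libraries and 0.117%, 0.119% and 0.120% with ACC, a 1.29-fold higher sum.

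NEU1, the lysosomal sialidase (ENSG00000204386, chr6:31857659-31862905 on the − strand), changed most in this class. It had 522, 543 and 479.6 normalized counts in the control and 972, 1003 and 1005 with ACC. The lowest ACC library was far above the highest control library, a 1.93-fold rise (log2 fold change 0.95 ± 0.056 (SE), adjusted p = 1.59e-10, limma). NEU1 protein works in a complex with CTSA and with GLB1, the beta-galactosidase. GLB1 was at 2575 ± 126 in the control and 3405 ± 71.0 with ACC. All 3 genes of the complex rose, GLB1 by 1.32-fold and CTSA by 1.37-fold (adjusted p = 2.45e-07 and 1.11e-08, limma).

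GAA, which breaks down glycogen (ENSG00000171298, chr17:80101533-80119881 on the + strand), had 4388, 4539.5 and 3877 normalized counts in the control and 6496, 6881 and 6929 with ACC. Its groups did not overlap and it rose 1.59-fold (adjusted p = 2.62e-09, limma). MANBA, the beta-mannosidase, had 390.3, 341 and 352 in the control and 487, 518 and 564 with ACC. HEXA, the alpha subunit of hexosaminidase A, with 13.2% of its exon bases shared with AC009690.2 on the opposite strand, had 1583, 1499 and 1489 in the control and 2181, 2139 and 2224 with ACC. Both were without overlap, with rises of 1.45- and 1.43-fold (adjusted p = 7.25e-06 and 1.03e-08, limma). FUCA1, the fucosidase, and MAN2B1, the alpha-mannosidase, rose with log2 fold changes of 0.38 and 0.16. The call of MAN2B1 (adjusted p = 0.0177, limma) was lost at adjusted p = 0.0913 without ACC 3 and at 0.0813 without control 3. MAN2B1 shares 13.1% of its exon bases with AC010422.3 on the same strand.

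IDS, IDUA, SGSH, NAGLU, GUSB and ARSB take part in the breakdown of heparan sulfate, dermatan sulfate or both. IDUA, the iduronidase, with 13.2% of its exon bases shared with SLC26A1 on the opposite strand, had 378, 336 and 302 normalized counts in the control and 523, 647 and 593 with ACC. GUSB, the glucuronidase, had 897, 927 and 880.3 in the control and 1237, 1259.8 and 1338 with ACC. Both genes rose without overlap, by 1.73- and 1.42-fold (adjusted p = 4.48e-07 and 1.01e-07, limma). NAGLU and SGSH, which act on the glucosamine units of heparan sulfate, rose by 1.32- and 1.31-fold. The sulfatases IDS, ARSB and ARSA did not pass. IDS, the iduronate sulfatase, was at 3249 ± 76.6 and 3439 ± 8.05, with every ACC library above every control library at an adjusted p of 0.075 (limma). Of its exon bases 75.0% are shared with AC244197.3 on the same strand, which had a mean of 9.86 normalized counts. ARSB, which acts on dermatan and chondroitin sulfate, had 762, 749 and 746 in the control and 742, 739.7 and 680.3 with ACC. Every ACC library was below every control library by a small margin, and the interval of its log2 fold change was -0.18 to 0.05 (adjusted p = 0.365, limma). ARSA, the sulfatase of sulfatide, was at 503 ± 47.1 and 543 ± 21.0, with an interval of -0.03 to 0.26. ARSA did not pass (adjusted p = 0.195, limma) except when control 2 was left out, at an adjusted p of 0.04.

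GLA, the alpha-galactosidase that acts on globo-type glycolipids, went against its class. It had 1846, 1957 and 1960.1 normalized counts in the control and 1594, 1555 and 1549 with ACC. All ACC libraries were below all control libraries, a 1.23-fold fall (log2 fold change -0.29 ± 0.042 (SE), adjusted p = 1.40e-05, limma). Of its exon bases 8.99% are shared with RPL36A on the opposite strand.

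Among the 6 lipid enzymes and lipid-binding proteins, 4 rose, NPC2 fell and PPT1 did not pass, with a median log2 fold change of 0.21. SMPD1 and ASAH1 act in sequence, the sphingomyelinase SMPD1 making ceramide and the ceramidase ASAH1 splitting it. SMPD1 had 216, 179 and 195 normalized counts in the control and 352, 335 and 318 with ACC. ASAH1 (ENSG00000104763, chr8:18055992-18084998 on the − strand) had 2095, 2312 and 2137 in the control and 3644, 3768 and 3634 with ACC. Both rose with no overlap, SMPD1 by 1.71-fold (adjusted p = 6.27e-07) and ASAH1 by 1.69-fold (adjusted p = 5.99e-11, limma).

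PSAP, the precursor of the saposins that present lipids to these enzymes, had the highest level per length of the 43 genes. It had 9064 normalized counts per kilobase of exon in the control and 11202 with ACC. In single libraries its normalized counts were 29387, 28557 and 26756 in the control and 34637, 34785 and 35260.1 with ACC. Its groups did not overlap, and the rise was 1.24-fold (adjusted p = 1.39e-06, limma). LIPA, the acid lipase for cholesteryl esters and triglycerides, had 2461, 2312 and 2354 in the control and 2621, 2548 and 2557 with ACC. That difference of 1.08-fold passed (adjusted p = 0.022, limma), but was lost without ACC 1, ACC 3 or control 2, at adjusted p-values of 0.0828, 0.0547 and 0.0921. PPT1, which takes palmitate off proteins, had 1526, 1568 and 1694 in the control and 1686, 1497 and 1656 with ACC. Its groups overlapped, and the interval was -0.10 to 0.12 (adjusted p = 0.854, limma).

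NPC2 and NPC1 form the route by which cholesterol leaves the lysosome, NPC2 binding it in the lumen and passing it to NPC1 in the membrane. NPC2 (ENSG00000119655, chr14:74476192-74494177 on the − strand) had 2061, 2026 and 2086 normalized counts in the control and 1480.4, 1418 and 1376 with ACC. NPC1 (ENSG00000141458, chr18:23506184-23586506 on the − strand) had 1858, 1741 and 1841 in the control and 1293, 1377 and 1194 with ACC. Every ACC library was below every control library for both genes. NPC2 fell 1.44-fold (log2 fold change -0.53 ± 0.042 (SE), adjusted p = 8.89e-09) and NPC1 1.41-fold (log2 fold change -0.49 ± 0.051 (SE), adjusted p = 2.88e-07, limma). These were the largest falls of the 43 genes. Exon bases shared with a gene on the opposite strand made up 3.99% for NPC2 (ISCA2) and 6.38% for NPC1 (RMC1).

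The membrane proteins held the lowest share of risen genes among these 4 classes. Of the 7, 3 rose, NPC1 fell and 3 did not pass, with a median log2 fold change of 0.20 and a summed count that was 1.10-fold higher. CD63, a tetraspanin of late endosomes and lysosomes, had 6157, 6112 and 5790.0 normalized counts in the control and 7293, 7056 and 7544 with ACC. SCARB2, a membrane protein that carries a hydrolase to the lysosome, had 3017, 3049 and 2967 in the control and 3749, 3388 and 3619 with ACC. LAMP2, a glycoprotein of the membrane coat that also serves autophagy, had 3158, 2988 and 3135 in the control and 3647, 3459 and 3532 with ACC. The ACC libraries of all 3 genes were above their control libraries. Their rises were 1.21-, 1.19- and 1.15-fold, with 3.67e-04 as the largest adjusted p (limma).

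LAMP1, the other main glycoprotein of the membrane coat, had 3502, 3405 and 3418 normalized counts in the control and 3485, 3281 and 3408 with ACC. The groups overlapped and the interval of the log2 fold change was -0.10 to 0.06 (adjusted p = 0.689, limma). MCOLN1, a calcium channel of the lysosome, had 289, 285 and 303 in the control and 329, 298 and 285 with ACC (adjusted p = 0.618, limma). CLN3, a membrane protein mutated in juvenile Batten disease, was the member with the fewest counts, 26.0, 26.7 and 26.6 in the control and 24.2, 37.6 and 33.8 with ACC. Its log2 fold change had a wide interval of -0.23 to 0.70, so that rises as large as those of many of the enzymes were not detectable at this depth (adjusted p = 0.424, limma).

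**Figure D3:**
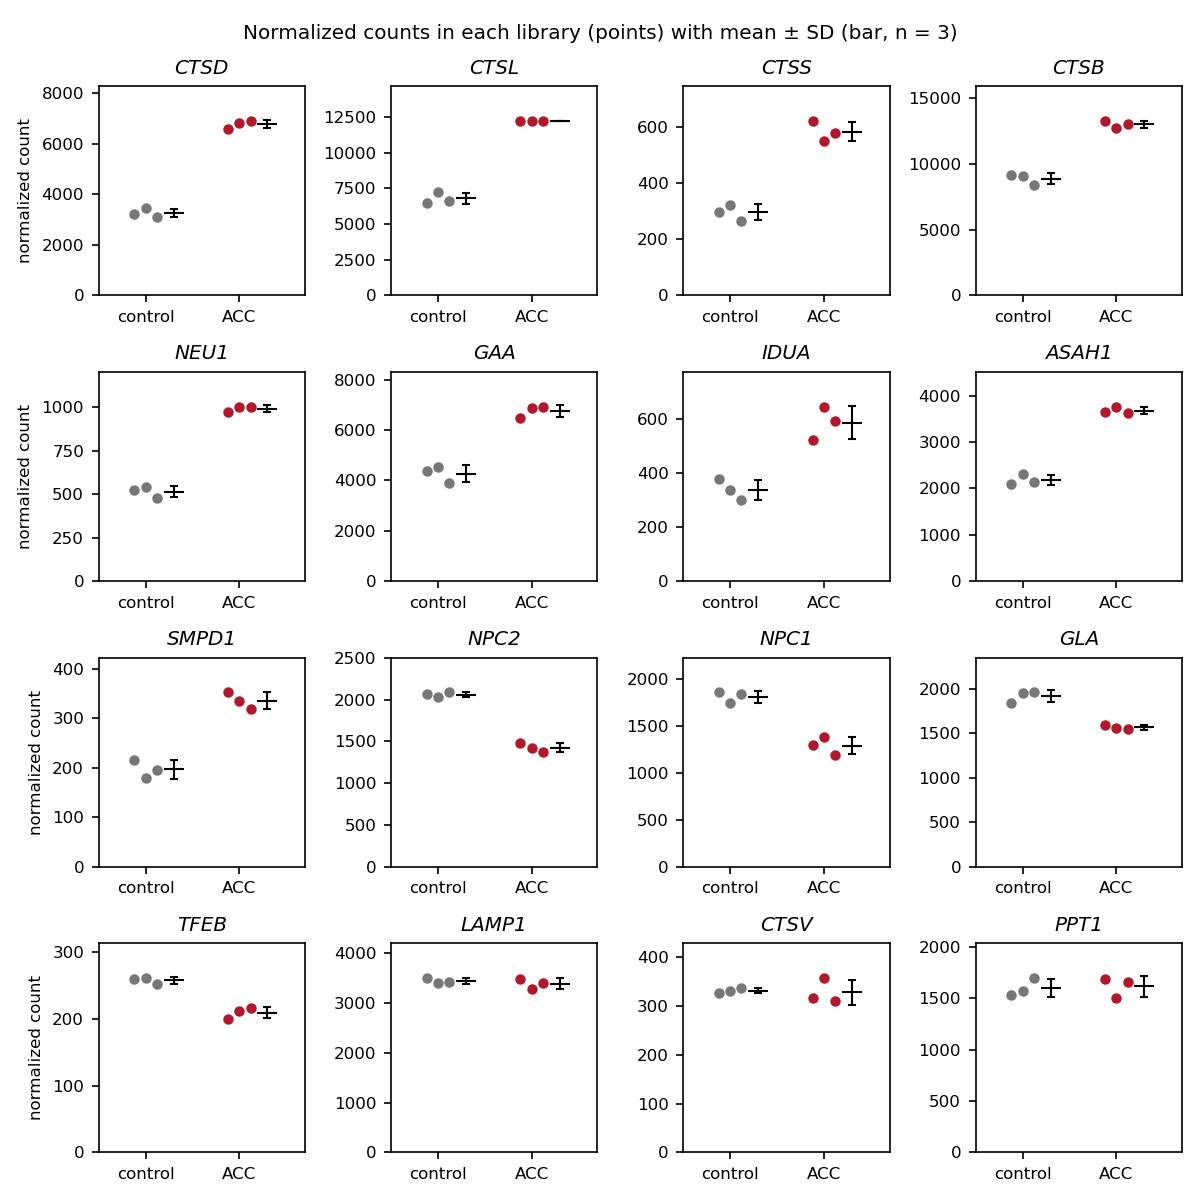
Normalized counts of 16 lysosomal genes in the 3 control and 3 ACC libraries (points) with the mean of each group and its SD (bars). The groups are apart for CTSD, CTSL, CTSS, CTSB, NEU1, GAA, IDUA, ASAH1 and SMPD1 (higher with ACC) and for NPC2, NPC1, GLA and TFEB (lower), and they overlap for LAMP1, CTSV and PPT1.

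Set side by side, the share of members that rose was 11 of 13 for proteases, 11 of 15 for glycosidases and sulfatases, 4 of 6 for lipid proteins and 3 of 7 for membrane proteins. The medians of the log2 fold changes followed the same order, at 0.57, 0.40, 0.21 and 0.20. The difference between classes was not tested. In the further lists below the order was reversed. There, 60% of 30 other membrane proteins and 56.2% of 32 other hydrolases and lumenal proteins rose, with medians of 0.26 and 0.21. Over all 43 genes, the summed normalized counts were 114590 ± 3601 in the control and 149860 ± 1145 with ACC, a 1.31-fold higher sum.

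**Figure D4:**
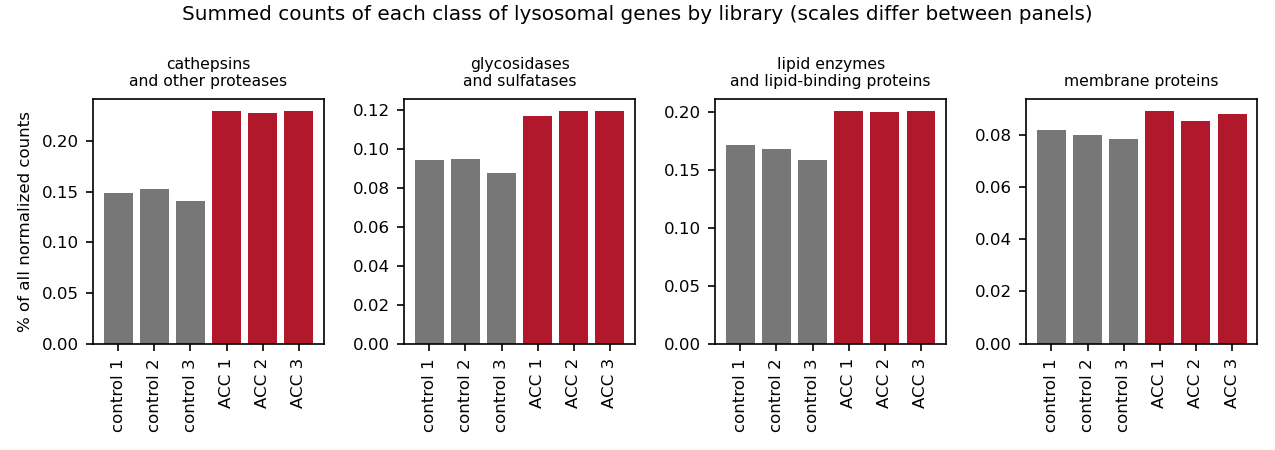
Summed normalized counts of each class of lysosomal genes, as percent of the total of the library, in each control and ACC library. In the proteases the shares are 0.141% to 0.153% in the control and 0.228% to 0.230% with ACC, and in the membrane proteins they are 0.0786% to 0.0820% and 0.0853% to 0.0894%.

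Other lysosomal genes, outside the 43, were read from further lists, whose counts stand beside the 21.3% of all genes tested that were higher and the 21.9% that were lower. Of 32 other hydrolases and lumenal proteins tested, 18 rose (56.2%) and 1 fell (3.12%), with a median log2 fold change of 0.21. The rises with the smallest p were those of the nuclease DNASE2 (log2 fold change 0.61), the aspartylglucosaminidase AGA (log2 fold change 0.61) and the galactosylceramidase GALC (log2 fold change 0.49). CTSK, a collagen-cleaving cathepsin of osteoclasts, had 56.9, 62.2 and 53.2 normalized counts in the control and 40.1, 44.3 and 41.9 with ACC, a 1.35-fold fall (adjusted p = 0.0372, limma). Of 30 other membrane proteins, 18 rose (60%) and 3 fell (10.0%), with a median of 0.26. The cation channel TPCN1 had 2398, 2378 and 2122 in the control and 4198, 4441 and 4291 with ACC, a 1.88-fold rise (adjusted p = 1.52e-11, limma). PLD3, a nuclease of the lysosome, and the transporter SLC46A3 rose with log2 fold changes of 0.48 and 0.95. ATP13A2, a polyamine exporter of the lysosome, had 1751, 1706 and 1607 in the control and 1005, 959 and 966 with ACC. Its groups were far apart, a 1.73-fold fall (adjusted p = 1.52e-10, limma). The transporters SLC36A1 (log2 fold change -0.25) and SLC15A4 (log2 fold change -0.19) fell by less.

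The machinery that sorts hydrolases to the lysosome was mixed. Of 14 genes for mannose 6-phosphate tagging, sorting and sulfatase activation, 6 rose (42.9%) and 2 fell (14.3%), with a median log2 fold change of 0.08. SORT1, a sorting receptor, had 1203, 1146 and 995 normalized counts in the control and 1912, 1912 and 2079.7 with ACC, a 1.77-fold rise (adjusted p = 2.48e-09, limma). IGF2R, the large mannose 6-phosphate receptor, rose 1.28-fold. Of the enzyme that makes the mannose 6-phosphate tag, the gamma subunit GNPTG rose (log2 fold change 0.59) and the precursor of the other subunits, GNPTAB, fell (log2 fold change -0.22). VPS35, of the retromer that recycles the receptors, fell (log2 fold change -0.28).

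Of 17 genes for TFEB relatives and nutrient sensing at the lysosome, 11 rose (64.7%) and 1 fell (5.88%), with a median log2 fold change of 0.24. RRAGD, a GTPase of that machinery, had 80.0, 67.6 and 85.5 normalized counts in the control and 161, 136 and 157 with ACC, a 1.94-fold rise (adjusted p = 4.92e-06, limma). FLCN, which acts on these GTPases, had 537, 471 and 447 in the control and 747, 702 and 696 with ACC (adjusted p = 1.57e-06, limma). MITF, given above, was also among the 3 risen genes with the smallest p. RPTOR, a subunit of mTORC1, fell 1.10-fold (adjusted p = 0.0205, limma).

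Of 35 autophagy genes, 14 rose (40.0%) and 6 fell (17.1%), against 21.3% and 21.9% of all genes tested, with a median log2 fold change of 0.12. SQSTM1, the cargo receptor p62, had 10648, 10822 and 11849 normalized counts in the control and 19407, 19333 and 20268 with ACC. It rose 1.77-fold with no overlap (adjusted p = 7.30e-12, limma). WIPI1 (log2 fold change 0.85) and ATG13 (log2 fold change 0.39), which act early in autophagosome formation, also rose. ULK1, the kinase that starts autophagy, fell 1.23-fold (adjusted p = 3.01e-06, limma), and ATG16L1 (log2 fold change -0.22) and ATG3 (log2 fold change -0.18), of the LC3 conjugation machinery, fell as well.

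Cystatins are secreted or cytosolic inhibitors of cysteine cathepsins. Of 13 listed genes, 8 were in the table and 5 had enough counts to be tested. CST3, the widely secreted cystatin C, had 4327, 4581 and 4049 normalized counts in the control and 5661, 5521 and 5590.4 with ACC, a 1.30-fold rise (adjusted p = 6.76e-07, limma). CST1, a secreted cystatin, had 6.75, 24.0 and 11.4 in the control and 161, 126 and 139 with ACC. CSTA, a cytosolic inhibitor of epithelia, had 9.64, 4.45 and 5.7 in the control and 55.0, 35.6 and 56.3 with ACC. Both were low in the control and well above it with ACC, at adjusted p-values of 2.60e-08 and 5.55e-07 (limma). CST2, a close relative of CST1, reached the filter through its ACC libraries alone, with at most 5.11 normalized counts, so its call carries little weight.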

How the data were processed

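RNA-seq libraries of 3 ACC and 3 control cultures of A549 cells were grouped by their titles. Per the study's methods and the submitters' processing notes, reads were trimmed with cutadapt, mapped to GRCh38 with STAR 2.4.2a, counted per gene with HTSeq and scaled with DESeq2. The deposited values (unit signal) are counts divided by the authors' DESeq2 size factors, to 2 decimals. All positive values (100%) were whole reads within 0.1 read after division by the value of 1 read. The authors' own fold changes and p-values in the table were not used.

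Genes whose normalized counts summed to at least 10 were tested (19318 of 24846, while 1873 of the 24846 had no read in any library) with limma 3.58.1 in R 4.3.3 on log2(normalized count + 1), with a mean-variance trend and Benjamini-Hochberg adjustment over all genes tested. The call was an adjusted p of 0.05 or less, and a second call added 2-fold and 30 reads in 1 library. The edgeR 4.0.16 quasi-likelihood test and DESeq2 1.42.0 on the recovered reads, TMM scaling, pseudocounts of 0.5 and 5, other filters, a replicate block and leaving out each library were alternatives. The tests were checked on simulated data.

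Libraries of a group differed from each other beyond sampling noise, so each was counted once. The study's methods give triplicate cultures, while the sample titles give only the group and a number. The p-values measure the spread between these samples, which may in part be technical. Gene positions and exon lengths came from GENCODE 44 on GRCh38, matched by gene ID for 24625 genes, and promoters from RefSeq on GRCh38.p14.

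The members and lists were chosen with earlier results of these data known. Values in each library are given for CTSB, TFEB, up to 6 genes per class with the largest change among those past the threshold, the gene with the largest adjusted p per class and the gene with the highest level per length. From each further list, up to 3 genes per direction with the smallest adjusted p are named. Other values were added where a sentence needed them.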

Additional observations from a re-analysis of the deposited data

How the results depend on the processing

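Over 14 alternatives for each result, 40 of the 43 lysosomal genes kept their call in every one. The exceptions were MAN2B1, LIPA and ARSA, each when a library was left out. No gene that passed in any fit changed direction. The log2 fold changes of CTSH, CTSV, PPT1, LAMP1 and MCOLN1, which passed in no fit, took either sign. The count of higher genes was 30 with TMM scaling, edgeR, DESeq2, either pseudocount and either filter, and 28 to 30 when a library was left out. The count of lower genes was 4 in every alternative. By the 2-fold rule the count of higher genes was between 1 and 2 when a library was left out, since CTSS reached a log2 fold change of 1.02 without ACC 2 and 1.05 without control 2, and the count of lower genes was 0 throughout. The median log2 fold change of the 43 genes was between 0.33 and 0.40 when a library was left out, with 0.33 without ACC 2 and 0.34 without control 2. Over all genes, the smallest counts came from DESeq2, with 3428 higher and 3449 lower. A fit with a replicate block gave 30 higher and 4 lower lysosomal genes, and 4011 higher and 4141 lower of all genes. The deviations of same-numbered ACC and control libraries correlated at -0.114, 0.044 and -0.031, and no ACC library correlated best with its own number, so the numbers were not taken as pairs. At this depth the low counts of CLN3 and CTSO limit what can be seen of them.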
